A study of Mus musculus with 26 samples.

Results

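Plasma cells are made from activated B cells, and the genes described here are 10 of that programme in the mouse spleen: the transcription factors Prdm1, Irf4 and Xbp1, the surface receptors Sdc1 and Tnfrsf17, and the antibody assembly and secretory genes Jchain, Mzb1, Derl3, Txndc5 and Fkbp11. They were chosen by gene symbol from a table of 56392 genes, and all 10 were found. All 10 also passed the filter on low values (FPKM, reads relative to the gene's length and the library's depth, of at least 1 in at least 5 libraries), which 15672 genes passed. In the settled view of this lineage, Irf4 and Prdm1 (whose protein is called Blimp-1) shut down the B-cell programme and open the antibody-secreting one, and Xbp1 enlarges the endoplasmic reticulum (ER) that folds and exports the antibody. The spleen is a main site where short-lived plasma cells form after an injected antigen, but Irf4 and Prdm1 are also made in activated and regulatory T cells, and Xbp1 in other secretory cells.

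The libraries came from the spleens of female BALB/c mice aged 8 weeks and weighing 18 to 22 g. Control mice, with the library code CT (5 libraries), received saline by injection into the peritoneum on days 1, 3 and 5. Ovalbumin (OVA), an egg-white protein used to sensitise mice, was given at 0.05 mg per day on the same days to the mice of codes OS (6 libraries) and ON (5 libraries). The mice of codes MM and MN (5 libraries each) received the same OVA and, on day 3, 7 mg/kg of an miR-676-3p mimic, a synthetic form of that microRNA, into the tail vein. All 5 groups are of 1 strain, sex and age, with 20 mice per group in the labels. What separates OS from ON, or MM from MN, is not defined in the labels, and nothing in the labels ties every library to its own mouse. The p-values therefore measure only the spread between these libraries, which may be technical.

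The whole reads behind the FPKM could be recovered and came to 14224832 to 18113989 per library. The library size that the FPKM imply differed from this depth. It was 0.712 times the recovered reads in ON 2, 0.802 in CT 4 and 0.885 in MM 2, and up to 1.12 in ON 1. In 3 libraries a list of 20 pancreas genes (digestive enzymes and islet hormones) took part of the reads, namely 28.0% in ON 2, 14.0% in MM 2 and 4.21% in ON 3, against at most 0.00339% in the other 23. In the saline library CT 4, 6.62% of reads were mitochondrial, the highest of the 26. Markers of the cells a spleen holds were present, with Cd79a of the B-cell receptor at a mean of 253 to 343 FPKM in the 5 codes and Hmox1 of red pulp macrophages at 282 to 338, and no marker of the B-cell, T-cell, macrophage or dendritic cell lists was at 0 throughout. CT 4 was also the lowest of the 26 libraries for 5 of the 10 members (Xbp1, Sdc1, Mzb1, Derl3 and Txndc5), and the part of its reads in those values was not tested.

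Prdm1 and Irf4 are regulators that changed in the same comparisons. Derl3 and Txndc5 are secretory genes, called in no comparison, that hold elements through which ER stress factors are known to act. Promoter sequences are shown for these 4 genes, and no test linked their letters to expression. Each is the RefSeq window from 250 bases before to 50 bases after the annotated start on GRCm38.p6, printed 5′ to 3′ on the gene's own strand, with any motif found in capitals (none was found in Prdm1). They lie at chr10:44458699-44458998 (minus strand, Prdm1), chr13:30748983-30749282 (plus strand, Irf4), chr10:75893148-75893447 (plus strand, Derl3) and chr13:38527865-38528164 (minus strand, Txndc5, 1 of its 3 windows).
Prdm1: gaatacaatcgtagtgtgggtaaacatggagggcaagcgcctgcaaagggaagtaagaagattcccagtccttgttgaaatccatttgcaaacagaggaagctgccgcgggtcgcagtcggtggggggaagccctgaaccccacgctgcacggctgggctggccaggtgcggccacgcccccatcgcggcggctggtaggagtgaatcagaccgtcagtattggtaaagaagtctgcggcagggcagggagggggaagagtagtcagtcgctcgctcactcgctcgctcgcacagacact
Irf4: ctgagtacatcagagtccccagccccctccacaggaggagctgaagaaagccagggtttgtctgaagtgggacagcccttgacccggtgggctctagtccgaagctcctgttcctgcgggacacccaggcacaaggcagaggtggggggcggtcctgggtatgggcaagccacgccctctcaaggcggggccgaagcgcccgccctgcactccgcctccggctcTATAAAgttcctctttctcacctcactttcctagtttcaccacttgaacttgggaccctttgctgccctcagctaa
Derl3: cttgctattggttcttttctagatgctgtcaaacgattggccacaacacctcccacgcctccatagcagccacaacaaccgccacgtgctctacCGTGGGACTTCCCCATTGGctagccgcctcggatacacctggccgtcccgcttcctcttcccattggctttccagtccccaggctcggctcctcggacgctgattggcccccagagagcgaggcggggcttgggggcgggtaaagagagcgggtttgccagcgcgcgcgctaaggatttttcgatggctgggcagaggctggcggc
Txndc5: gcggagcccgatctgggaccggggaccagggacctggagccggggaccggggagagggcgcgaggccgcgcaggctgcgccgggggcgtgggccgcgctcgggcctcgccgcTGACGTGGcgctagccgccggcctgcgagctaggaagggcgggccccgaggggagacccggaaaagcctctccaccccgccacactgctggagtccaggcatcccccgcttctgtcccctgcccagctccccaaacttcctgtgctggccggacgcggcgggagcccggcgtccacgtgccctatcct

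Windows were available for 9 of the 10 members, 12 windows in all, and both strands were searched. The ER stress response element (CCAAT and CCACG with 9 bases between them), bound by ATF6 with NF-Y, was found in Derl3 at -156 to -138 from the start, where it reads on the opposite strand. It is a rare match, present in 0.119% of the 32851 windows of all genes. The core TGACGTGG of the unfolded protein response element, bound by XBP1, stood in Txndc5 at -138 to -131, and 0.676% of all windows hold it. The TATA box TATAAA stood in Irf4 at -26 to -21, against 13.6% of all windows. The AP-1 site TGACTCA, bound by Fos and Jun proteins, was in 0 of the 12 member windows and in 5.20% of all windows. The core of the interferon-stimulated response element stood in Tnfrsf17 at -101 to -92 and in another Txndc5 window at -163 to -154, against 3.44% of all windows, and Tnfrsf17 also held TATAAA at -114 to -109. The composite core shared by Ets and IRF factors was in 0 of the 12 member windows and in 2.72% of all windows. No window of Prdm1, Xbp1, Sdc1, Jchain or Fkbp11 held any of these motifs. A match is a description of letters within the window, and no binding was measured.

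Prdm1 was highest in the OVA code OS. Its FPKM was 2.30, 3.65, 3.20, 3.41 and 3.88 in the saline libraries CT 1 to CT 5, and from 5.41 to 8.17 with a median of 7.23 in the 6 OS libraries. In ON it was 4.04, 6.01, 3.78, 3.11 and 3.57. Every OS library thus lay above every saline library, whereas ON overlapped saline, with its highest value in ON 2, which holds pancreas reads. In MM it was 6.29, 4.65, 4.55, 5.72 and 5.85, all above the highest saline library, and in MN 3.60, 3.52, 4.44, 3.72 and 3.02. The order of the code means was OS at 7.00 ± 0.96 (SD, n = 6), MM at 5.41 ± 0.77, ON at 4.10 ± 1.12, MN at 3.66 ± 0.51 and CT at 3.29 ± 0.61 (n = 5 each), and no neighbours in this order differed in limma's test (adjusted p = 0.784 to 0.977). On the deposited table's own positions, whose genome build is not named, Prdm1 lies on the minus strand of chromosome 10 from 44313173 to 44404497.

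Irf4, which is induced by B-cell receptor signalling and acts with Prdm1, was also highest in OS. Its FPKM was 12.3, 16.1, 17.2, 15.5 and 17.4 in CT, and from 22.8 to 39.1 with a median of 34.1 in OS. The values were 20.7, 20.4, 17.7, 15.6 and 15.9 in ON, 22.1, 13.9, 16.3, 19.5 and 20.1 in MM, and 18.5, 15.5, 17.2, 17.9 and 18.6 in MN. No library of any other code reached the lowest OS library, the nearest being MM 1 at 22.1. The code means were 31.7 ± 6.51 in OS (SD, n = 6), 18.4 ± 3.26 in MM, 18.1 ± 2.41 in ON, 17.6 ± 1.28 in MN and 15.7 ± 2.05 in CT (n = 5 each), with adjusted p from 0.151 to 0.993 between neighbours in this order (limma). Per length, Irf4 was the more abundant of the pair, with a mean over all libraries of 20.7 FPKM against 4.78 for Prdm1. Its position in the deposited table is chromosome 13, plus strand, from 30933209 to 30950959.

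**Figure D1:**
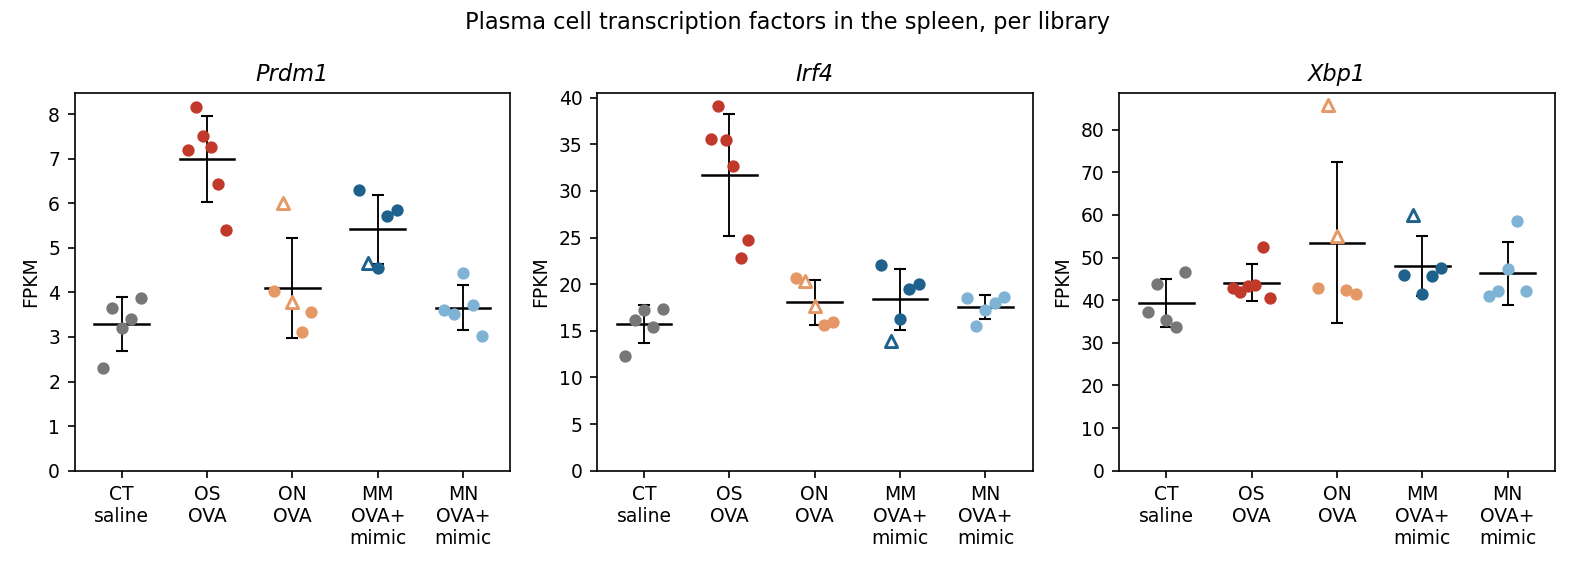
FPKM of Prdm1, Irf4 and Xbp1 (y axes, linear from 0) in each of 26 libraries by code (x axis), where filled circles are libraries, open triangles are the 3 libraries with at least 1% of reads on pancreas genes, and the line and bar are the mean and SD of all libraries of a code. The 6 OS libraries lie above all others for Irf4 and above all saline libraries for Prdm1, and the highest Xbp1 value, 85.9, is the triangle of ON 2.

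For OVA against saline (11 libraries against 5, with OS and ON weighted equally), limma called 2 of the 10 members higher and 0 lower, against 0.785% of all genes tested called higher and 1.38% lower. The log2 difference, on the scale of log2(FPKM + 1), was 0.57 ± 0.11 (SE) for Prdm1 (adjusted p = 0.0089, limma) and 0.57 ± 0.12 for Irf4 (adjusted p = 0.0126, limma), with 8 and 9 of the 11 OVA libraries above the highest saline library. Both calls ended when 1 mean was fitted per treatment (adjusted p = 0.0899 and 0.0861, limma), and that of Irf4 also without CT 1 (0.0566) and when only the saline and OVA libraries were fitted (0.0511). Since the spleen was measured in bulk, more cells of a type and more RNA per cell cannot be told apart here or in any result that follows.

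OS and ON were then set against saline one by one. Against saline, limma called 2 of 10 members higher in OS, Prdm1 by 0.90 ± 0.13 (2.13 times the mean FPKM of saline) and Irf4 by 0.95 ± 0.13 (2.02 times), each with an adjusted p of 6.13e-04, where 1.98% of all genes were called higher and 1.01% lower. These 2 members were also those whose OS libraries all lay above saline, a pattern seen in 1.4% of genes. Both calls held in all 18 alternative fits. For ON against saline, limma called 0 of 10 members (0.51% of genes were called in either direction), with 2 of 10 at an unadjusted p under 0.05 (13.6% of genes) and 0 of 10 called by voom on recovered reads; Prdm1 stood at 0.24 ± 0.13 and Irf4 at 0.19 ± 0.14.

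Tested directly, OS lay above ON for 2 of 10 members, against 0.172% of all genes called higher by limma. The difference was 0.76 ± 0.13 for Irf4 (adjusted p = 0.0202, limma), where all 6 OS libraries lay above all 5 ON libraries as they did for 0.44% of genes. It was 0.67 ± 0.13 for Prdm1 (adjusted p = 0.0303, limma), where the 6.01 FPKM of ON 2 exceeded 1 of the 6 OS libraries. Without the libraries with pancreas reads the differences were 0.82 ± 0.15 for Irf4 (adjusted p = 0.0119, limma) and 0.80 ± 0.13 for Prdm1 (0.00606). When only the OS and ON libraries were fitted the adjusted p was 0.235 for each, and with the replicate number as a block it was 0.0505 for Irf4 and 0.0574 for Prdm1. Leaving out any 1 of OS 2, OS 3, OS 4, ON 3, ON 4 and ON 5 ended both calls, and leaving out ON 1 that of Prdm1 (adjusted p up to 0.151 for Prdm1 and 0.118 for Irf4, limma).

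Of the codes with the mimic, MN lay close to saline for both factors. Against OS, limma called 2 of 10 members lower in MN (1.6% of genes), Prdm1 by -0.78 ± 0.13 and Irf4 by -0.80 ± 0.13 (adjusted p = 0.00246 for each), and in both every MN library lay below every OS library, as for 2.57% of genes. Each of these calls also held in all 18 alternatives. Against saline, limma called 0 of 10 members in MN (0% of genes), with 1 of 10 at an unadjusted p under 0.05 (2.88% of genes) and 0 by voom, and Prdm1 and Irf4 were 0.13 ± 0.13 and 0.16 ± 0.14 from it.

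For Prdm1, MM had the second highest mean. Against saline, limma called 0 of 10 members (0.3% of genes), with 2 of 10 at an unadjusted p under 0.05 (9.78% of genes) and 1 of 10 called by voom, which was Prdm1. Its difference was 0.59 ± 0.13 (adjusted p = 0.0512, limma) and every MM library lay above every saline library, as in 1.2% of genes. Without MM 2, ON 2 and ON 3 it was 0.63 ± 0.12 and called (adjusted p = 0.0251, limma, where 0.268% of genes were called higher). Irf4 in MM was 0.21 ± 0.14 above saline (adjusted p = 0.667, limma).

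Against OS, limma called 0 of 10 members in MM (0% of genes), with 3 of 10 at an unadjusted p under 0.05 (5.77% of genes) and 0 by voom. Irf4 was -0.75 ± 0.13 from OS (adjusted p = 0.151, limma), every MM library lying below every OS library as in 0.287% of genes, and it was called without OS 5 (0.0184) or OS 6 (0.0318). Prdm1 was -0.32 ± 0.13 from OS (adjusted p = 0.784, limma), with 2 of 5 MM libraries below the lowest OS library. The direct test of MM against MN called 0 of 10 members (0.172% of genes), with 2 of 10 at an unadjusted p under 0.05 (7.25% of genes) and 0 by voom. There Prdm1 differed by 0.46 ± 0.13 (adjusted p = 0.21, limma) with every MM library above every MN library, which 2.02% of genes showed, and Irf4 by 0.05 ± 0.14.

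Over the mimic as a whole, limma called 0 of 10 members against OVA (0% of genes), with 5 of 10 at an unadjusted p under 0.05 (10.1% of genes) and 0 by voom. Against saline it called 0 of 10 (0% of genes), with 2 of 10 at an unadjusted p under 0.05 (6.72% of genes) and 0 by voom. The smallest adjusted p against OVA was that of Irf4, at 0.182 with a difference of -0.39 ± 0.10. MM against ON likewise gave 0 of 10 called members by limma (0% of genes), with 1 of 10 at an unadjusted p under 0.05 (3.61% of genes) and 0 by voom. The comparisons share their control or OVA libraries, so their values are not independent of each other.

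Xbp1, the third factor, whose messenger RNA is also spliced in the cytoplasm when the ER is under load, passed no test. Its FPKM ranged from 33.8 (CT 4) to 46.5 in CT, 40.6 to 52.5 in OS and 41.0 to 58.6 in MN, and these ranges overlapped. In ON it was 42.9, 85.9, 55.0, 42.4 and 41.4, and in MM 45.9, 60.1, 41.5, 45.7 and 47.5, so that the 2 values above 60 are the libraries with the most pancreas reads, ON 2 and MM 2. OS differed from saline by 0.17 ± 0.15 (adjusted p = 0.652, limma). The ON difference from saline was 0.39 ± 0.16 with all libraries and 0.11 ± 0.12 without those with pancreas reads (adjusted p = 0.269 and 0.871, limma). FPKM per gene does not separate spliced from unspliced Xbp1.

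Neither surface receptor passed a test in any comparison. Sdc1, the syndecan CD138 by which plasma cells are sorted, ranged from 3.33 in CT 4 to 6.43 FPKM over all 26 libraries, with code means from 4.88 ± 0.97 in CT to 5.55 ± 0.47 in MN (SD, n = 5). Without CT 4 the CT mean of Sdc1 was 5.26 ± 0.51 (SD, n = 4). Tnfrsf17, the receptor BCMA that takes up survival signals in the plasma cell, rested on 18 to 62 reads per library and ranged from 1.63 to 4.61 FPKM. Its OS libraries ran from 1.63, the lowest value of all, through a median of 2.39 to 2.67 and averaged 2.27 ± 0.40, against 2.90 ± 0.56 in CT. OS and CT overlapped, and the difference of -0.25 ± 0.14 did not pass (adjusted p = 0.401, limma). Tnfrsf17 differed by -0.37 in OS against ON, 0.48 in MM against OS and 0.32 in MN against OS. These had an unadjusted p under 0.05 (10.6%, 5.77% and 18.1% of genes, limma), as had the mimic against OVA (10.1%). None was called, and no comparison with saline had such a p. Over the 23 libraries without pancreas reads, the log2 values of Irf4 and Tnfrsf17 had a Pearson r of -0.52, a description across libraries that share codes.

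Jchain, which joins IgM and IgA units into polymers, was the most abundant member at a mean of 533 FPKM, from 361 in CT 3 to 747 in OS 5. The code means lay between 504 ± 92.5 in CT and 579 ± 76.5 in MM, and all codes overlapped. OS differed from saline by 0.15 ± 0.15 (adjusted p = 0.687, limma). Txndc5, a disulphide isomerase of the ER, ranged from 36.6 in CT 4 to 63.1 FPKM, with code means from 46.7 ± 4.57 in OS to 55.1 ± 5.42 in MN, which overlapped. Its OS difference from saline was -0.04 ± 0.11 (adjusted p = 0.902, limma), and -0.14 ± 0.10 without CT 4 (0.475).

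Mzb1, an ER chaperone of IgM that marginal zone B cells hold as well as plasma cells, was highest in MN and lowest in OS by its code means. In MN it was 15.7, 18.9, 16.8, 26.6 and 15.1 FPKM, and in OS it ran from 4.45 through a median of 8.12 to 10.003. The remaining codes held 10.7, 17.4, 17.1, 1.78 and 18.5 in CT, 8.21, 5.99, 10.4, 13.0 and 10.6 in ON, and 11.7, 8.63, 10.8, 8.77 and 8.70 in MM. Every MN library lay above every OS, ON and MM library, and 4 of 5 saline libraries lay above every OS library, the exception being CT 4. The means were 18.6 ± 4.68 in MN, 13.1 ± 7.03 in CT, 9.70 ± 1.41 in MM, 9.65 ± 2.66 in ON and 7.36 ± 2.32 in OS, and no neighbours in this order differed in limma's test (adjusted p = 0.753 to 0.994).

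MN exceeded OS by 1.25 ± 0.35 for Mzb1 (2.53 times, adjusted p = 0.0484, limma), the 1 of 10 members called higher where 1.29% of genes were, and all MN libraries lay above OS in 3.04% of genes. This call sat at the threshold: it ended in 14 of 18 alternatives, with an adjusted p of 0.0126 to 0.116 over them. MM lay below MN in every library, as did 1.91% of genes, by -0.85 ± 0.36 (adjusted p = 0.573, limma). For MN against ON, limma called 0 of 10 members (0.249% of genes), with 1 of 10 at an unadjusted p under 0.05 (9.78% of genes) and 0 by voom, and Mzb1 stood at 0.89 ± 0.36 with every MN library above every ON library, as in 5.68% of genes.

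A single saline library decided whether Mzb1 was called in OVA. With all libraries the OS difference from saline was -0.53 ± 0.35 (adjusted p = 0.49, limma). Without CT 4, whose Mzb1 rested on 29 reads, it was -1.04 ± 0.21 and called lower (adjusted p = 0.00941, limma), where 1.61% of genes were called lower. OVA against saline likewise went from -0.35 ± 0.31 (adjusted p = 0.642) to -0.86 ± 0.19 (0.0209, limma), where 1.53% of genes were called lower. In CT 4, 6.62% of reads were mitochondrial, and the part of this in its low Mzb1 was not tested.

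**Figure D2:**
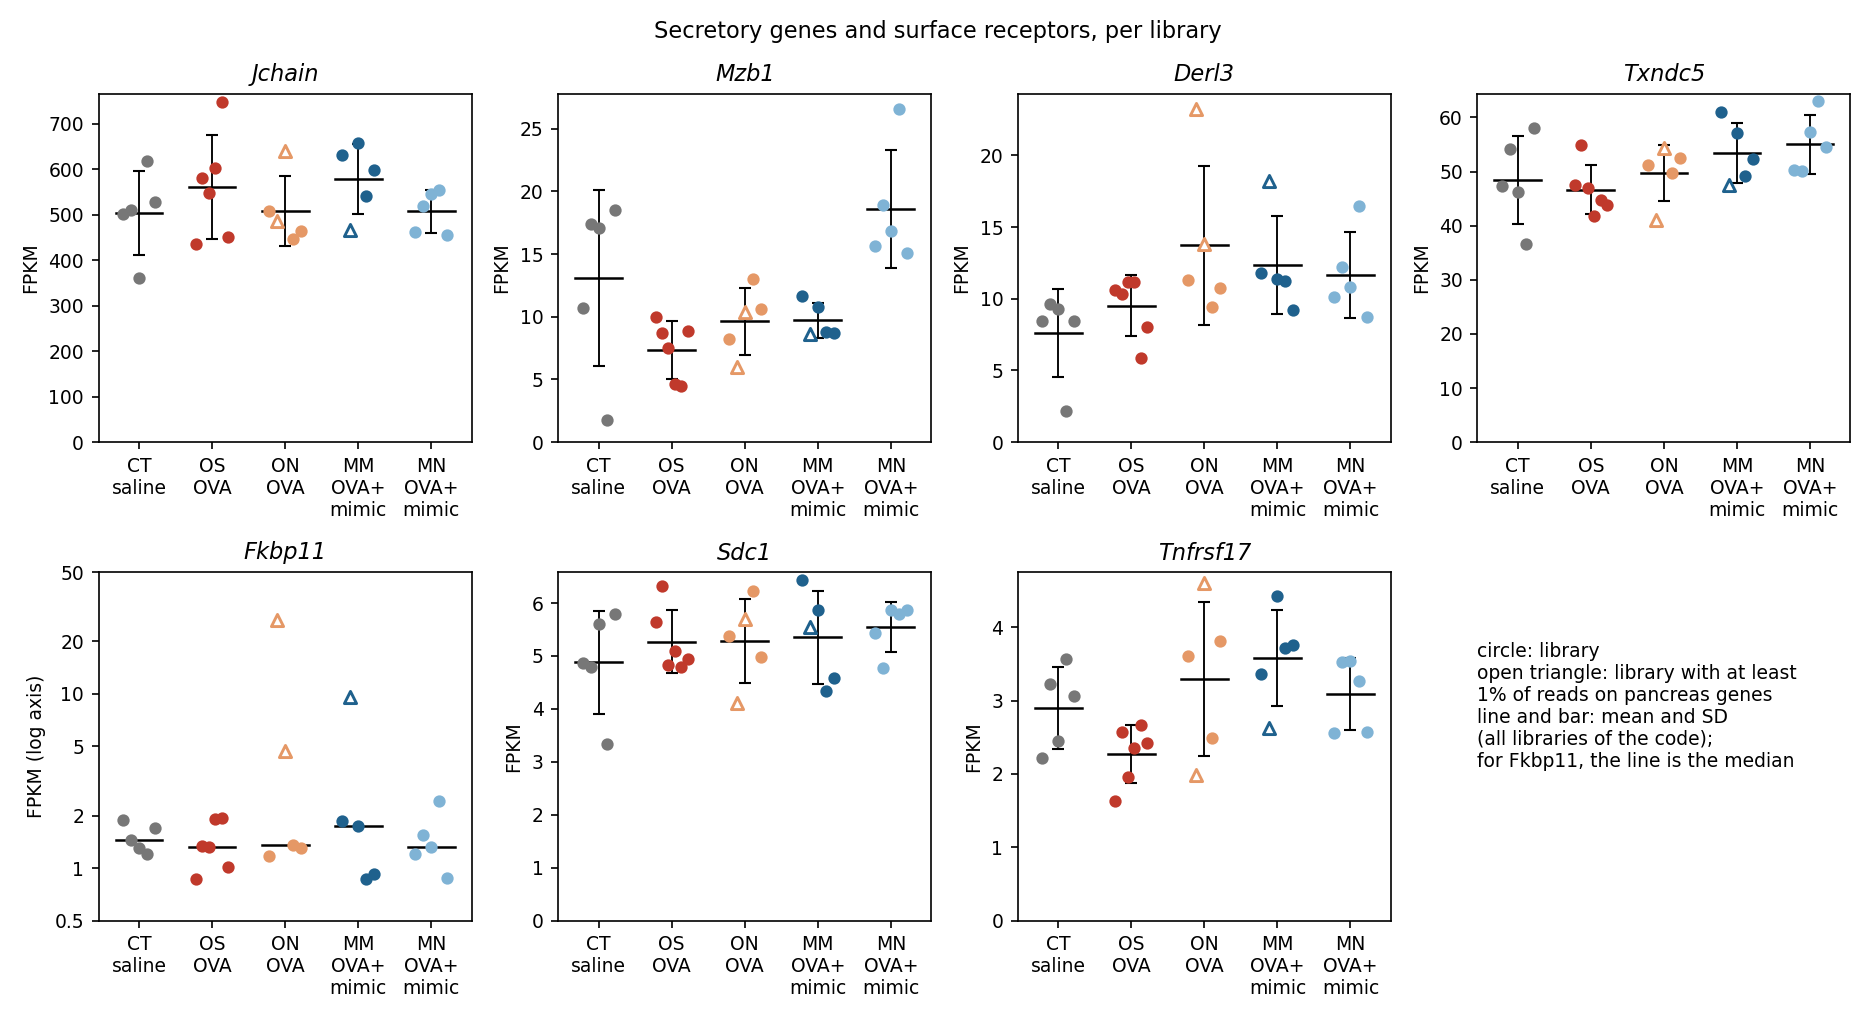
FPKM of the 5 secretory genes and 2 surface receptors (y axes, linear from 0, except a log axis for Fkbp11) in each of 26 libraries by code (x axis), with circles for libraries, open triangles for the 3 libraries with pancreas reads, and a line and bar for the mean and SD (for Fkbp11 a line at the median). Mzb1 in the 5 MN libraries lies above OS, ON and MM, CT 4 is lowest for Mzb1 and Derl3, and the 3 triangles are the highest Fkbp11 values.

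Derl3 and Fkbp11 were highest in ON 2 and MM 2, the libraries with the most pancreas reads. Derl3, which helps to pull misfolded proteins out of the ER, was 8.47, 9.61, 9.31, 2.17 and 8.45 FPKM in CT and from 5.84 through a median of 10.4 to 11.2 in OS. Its highest value of all was 23.3 in ON 2, with 18.2 in MM 2 and 13.8 in ON 3, while MN 4 reached 16.5 with no pancreas reads to speak of (0.00286%). The ON difference from saline was 0.83 ± 0.28 (adjusted p = 0.165, limma), 0.54 ± 0.29 without the 3 libraries (0.65) and 0.50 ± 0.22 without CT 4 (0.265). The OS difference of Derl3 went from 0.38 to 0.05 ± 0.21 without CT 4, that of MM from 0.72 to 0.39 ± 0.22 and that of MN from 0.65 to 0.32 ± 0.22, and none passed with or without it. In the deposited table Derl3 lies on chromosome 10, plus strand, from 75729247 to 75731775.

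Fkbp11, a prolyl isomerase of the ER, was highest in the 3 libraries with pancreas reads. It lay between 0.871 and 2.41 FPKM in the 23 other libraries, with a median of 1.33, and reached 26.5 in ON 2, 9.57 in MM 2 and 4.68 in ON 3. Those values are 20.0, 7.20 and 3.52 times that median and come in the order of the share of pancreas reads, and their part in the result was not tested. With all libraries the ON mean was 7.01 ± 11.0, and without ON 2 and ON 3 it was 1.28 ± 0.10 (SD, n = 3). The log2 difference of ON from saline was 0.85 ± 0.50 with all libraries and -0.13 ± 0.19 without the 3. Acinar cells of the pancreas are a secretory cell type in which Xbp1 and ER folding genes are known to be abundant. Prdm1, Irf4, Sdc1, Jchain, Mzb1 and Txndc5 in these 3 libraries stayed within the range of the other 23, and Tnfrsf17 did so except in ON 3.

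**Figure D3:**
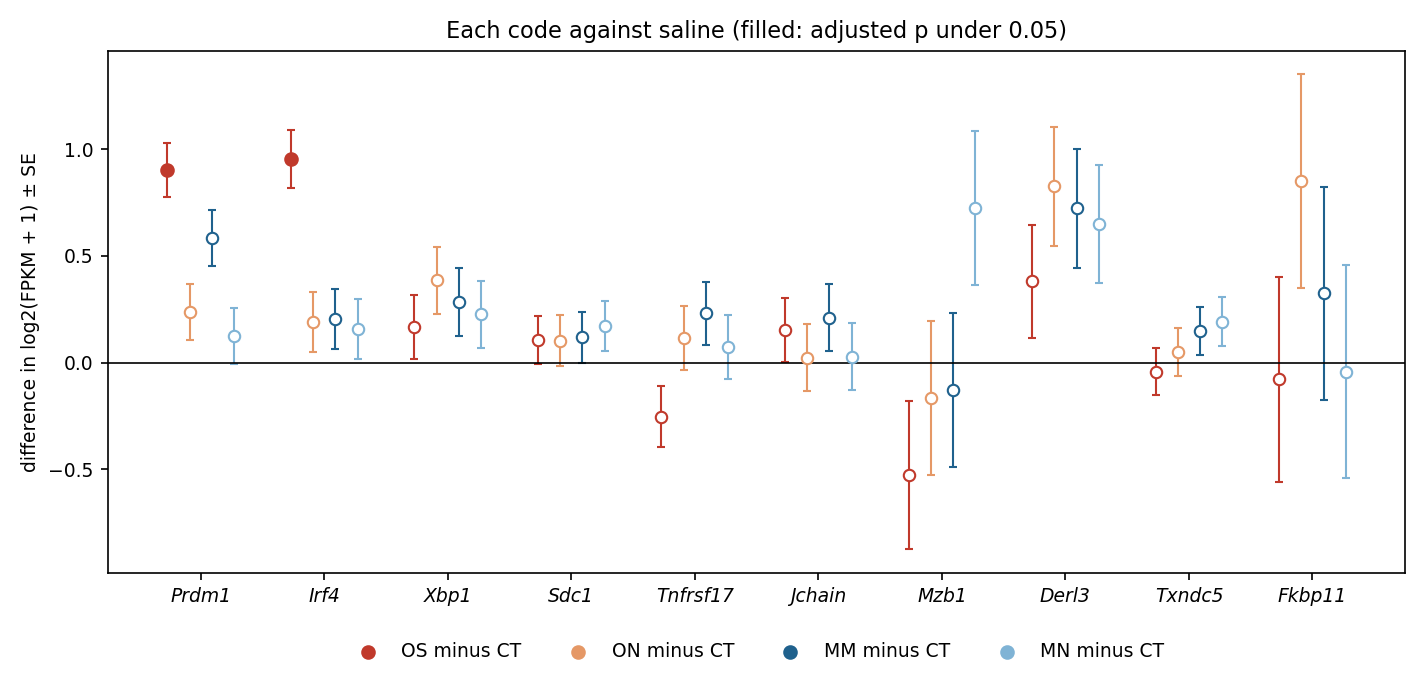
Difference of each code from saline in log2(FPKM + 1) (y axis, points with SE bars) for each of the 10 genes (x axis), by code colour, filled where limma's adjusted p was under 0.05. Only Prdm1 and Irf4 in OS are filled, at 0.90 and 0.95, and Derl3 lies above 0 in all 4 codes without passing, by 0.38 in OS with CT 4 and 0.05 without it.

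The factors and the secretory genes were set against each other by library. The mean of the 3 factors in log2(FPKM + 1), less the saline mean, ran from 0.43 to 0.83 in OS and from -0.25 to 0.20 in CT, which did not overlap, but ON reached 0.73 in ON 2 and MM reached 0.49, both within the OS range. Xbp1, 1 of the 3, did not pass in OS. The same mean of the 5 secretory genes ran from -0.12 to 0.12 in OS and from -0.72 to 0.29 in CT, the lowest being CT 4. The saline mean subtracted here includes CT 4. Without CT 4, the OS differences from saline were 0.23 for Jchain, 0.05 for Derl3, -0.12 for Fkbp11, -0.14 for Txndc5 and -1.04 for Mzb1. Outside OS, the largest secretory values were those of ON 2 (0.82), MN 4 (0.68), MM 2 (0.60) and ON 3 (0.52), and 3 of these 4 hold pancreas reads. MN 4 had a factor mean of 0.30, close to MM 2 at 0.29 and ON 3 at 0.27. The OS differences from saline were 0.90 for Prdm1, 0.95 for Irf4 and 0.17 for Xbp1, so the factors' median of 0.90 is that of Prdm1. With all libraries the median of the 5 secretory genes was -0.04, beside 3.66e-05 over all genes tested.

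**Figure D4:**
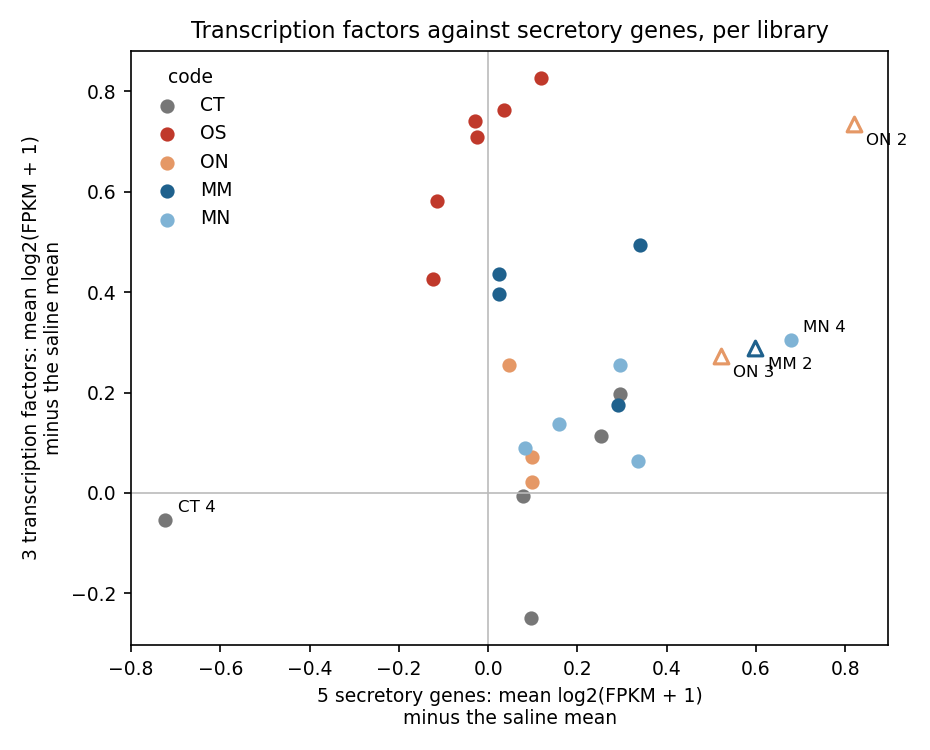
Each point is a library, with the mean log2(FPKM + 1) of the 5 secretory genes less the saline mean on the x axis and the same for the 3 transcription factors on the y axis, coloured by code, with open triangles for libraries with pancreas reads. The 6 OS points lie at 0.43 to 0.83 on the y axis and -0.12 to 0.12 on the x axis, while ON 2 is high on both axes and CT 4 is lowest on the x axis. The saline mean includes CT 4.

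Across libraries, Prdm1 and Irf4 had a Pearson r of 0.89 in log2(FPKM + 1) over the 23 libraries without pancreas reads and 0.85 over all 26, but neither followed Xbp1 (0.33 and 0.17 over the 23). Among the secretory genes, Mzb1 and Txndc5 had an r of 0.76, Mzb1 and Derl3 0.69 and Derl3 and Txndc5 0.68 over the 23. Jchain stood apart from them, with an r of -0.47 with Mzb1, -0.19 with Derl3 and 0.05 with Txndc5. The r of Xbp1 with Fkbp11 was 0.36 over the 23 libraries and 0.84 over all 26. These are descriptions over libraries that share codes.

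The genes most like each member were the 3 with the highest r over the same 23 libraries. For Prdm1 they were Bcr (0.93), Errfi1 (0.92), a feedback inhibitor of EGF receptor signalling, and Adamts1 (0.91), and for Irf4 Akap12 (0.93), Cd274 (0.91), the checkpoint ligand PD-L1, and Rasgef1b (0.91). Those most like Txndc5 included Bhlha15 (0.83), the factor Mist1 of plasma cells and acinar cells. Its r with Txndc5 was -0.02 over all 26 libraries, which include the 3 with pancreas reads. Bhlha15 reached 39.1 FPKM in ON and 22.1 in MM, the codes that hold those 3 libraries, against at most 1.97 in CT. The part of pancreas reads in these values was not tested. Jchain was nearest to Actr3 (0.87) and Dnajb9 (0.86), an ER co-chaperone, Derl3 to Plod3 (0.93), Mzb1 to Sirt6 (0.91), Fkbp11 to Rpl36al (0.80) and Creld2 (0.79), and Xbp1 to Gnai3 (0.79).

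The rest of the programme was described by gene lists, the first being regulators. Of 12 tested regulators and receptors of plasma cells outside the members, limma called 3 higher in OS than in saline (1.98% of all genes) and 0 lower: Cxcr4 by 0.88 ± 0.19, Eaf2 by 0.70 ± 0.17 and Cd93 by 0.46 ± 0.12. Cxcr4, the receptor that draws plasma cells to the bone marrow, averaged 203 ± 31.5 FPKM in OS (SD, n = 6) and 111 ± 25.1 in CT (n = 5), without overlap, and Cd93, an adhesion receptor, 11.0 ± 1.74 and 7.78 ± 1.64, with overlap. In MN, 2 of the 12 were lower than in OS (1.6% of all genes), Cxcr4 by -0.70 ± 0.19 and Cd93 by -0.56 ± 0.12. Pou2af1, the B-cell coactivator OBF-1, did not pass in OS (0.24 ± 0.13). Over OVA as a whole limma called 0 of the 12, where 0.785% of all genes were called higher and 1.38% lower. Of the 12, 5 had an unadjusted p under 0.05 (16.3% of all genes) and 0 were called by voom.

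Of 23 ER folding and export genes, limma called 2 higher in OVA than in saline (0.785% of all genes) and 0 lower, namely Herpud1 by 0.81 ± 0.22 (adjusted p = 0.0475) and Edem1 by 0.49 ± 0.11 (0.0167), both of which serve the removal of misfolded proteins from the ER. The same 2 were called higher in OS (1.98% of all genes), by 0.95 ± 0.24 and 0.44 ± 0.12. Hspa5, the main ER chaperone BiP, stood at 117 ± 9.81 FPKM in CT and 127 ± 10.8 in OS and did not pass (0.12 ± 0.11 in OS). Without the libraries with pancreas reads, Herpud1 still passed in OVA (0.58 ± 0.14, adjusted p = 0.0454, limma) and Edem1 did not (0.40 ± 0.10, 0.0546), and the list's median went from 0.05 to -0.04. In OS its median was 0.00443, beside 3.66e-05 over all genes tested.

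The antibody genes and the B-cell factors that plasma cells silence did not pass in OS. Against saline limma called 0 of 12 immunoglobulin constant regions and 0 of 8 proliferation genes, with 0 at an unadjusted p under 0.05 and 0 by voom in each. It called 0 of 11 B-cell identity factors and 0 of 7 germinal-centre genes, with 1 at an unadjusted p under 0.05 and 0 by voom in each. Over all genes, 1.98% were called higher, 1.01% lower and 16.3% had an unadjusted p under 0.05. A count of 0 called in lists of 7 to 12 genes is near the share of called genes. Ighm, the heavy chain of IgM, averaged 3585 ± 678 FPKM in OS and 2975 ± 320 in CT, with a difference of 0.26 ± 0.15, and Igkc, the kappa light chain, 7344 ± 1132 and 7641 ± 2059, with -0.03 ± 0.18. Beyond OS, 4 of the 12 constant regions had an unadjusted p under 0.05 in OVA against saline (16.3% of genes). The count was also 4 in ON against saline (13.6%), and in both limma and voom called 0. Of 10 tested signals for plasma cell formation, Il10 was called higher in OS by 2.17 ± 0.53 (1.98% of all genes) and lower in MN than in OS by -2.16 ± 0.53 (1.6%). Its OS values ran from 0.853 to 23.0 FPKM and its CT values from 0 to 2.01, which overlap, and voom called it in neither comparison.

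Lists for other cells and states were read beside Prdm1 and Irf4. Of 12 immediate early genes, which answer within minutes to stimulation or stress, 6 were called higher in OS than in saline (1.98% of all genes), 4 in OS than in ON (0.172%), and 6 lower in MN than in OS (1.6%). In these 3 comparisons all 12 had an unadjusted p under 0.05 (16.3%, 10.6% and 18.1% of genes). So did 10 in MM against saline (9.78%) and 11 in MM against ON (3.61%), with 0 called in either. The count was 0 in ON and in MN against saline (13.6% and 2.88%). The mean of the 12, less the saline mean, ran from 0.07 to 2.80 in OS, -1.46 to 1.17 in CT, -0.76 to 0.94 in ON, 0.67 to 2.62 in MM and -0.71 to 0.66 in MN, and their summed FPKM from 235 to 1449 in OS and 62.3 to 521 in CT. None of the 12 was at 0 throughout. OS 5 had the early genes at 0.07, within the saline range, and held 6.43 FPKM of Prdm1 and 22.8 of Irf4, above the highest saline values of 3.88 and 17.4, the Irf4 value being the lowest of the 6 OS libraries. The part of the early response in the Prdm1 and Irf4 values was not tested. MM 1, with the early genes at 2.62, held 6.29 of Prdm1 and 22.1 of Irf4.

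Of 7 genes of regulatory and activated T cells, 2 were called higher in OS than in saline (1.98% of all genes), Ctla4 by 1.93 ± 0.38 and Icos by 0.85 ± 0.23. Ctla4 was also called higher in OS than in ON by 1.83 ± 0.38 (0.172% of all genes). In MN, 1 of the 7 was called lower than in OS (1.6% of all genes), Ctla4 by -1.43 ± 0.38 (adjusted p = 0.0427, limma). The summed FPKM of the 7 ran from 33.5 to 111 in OS and 14.8 to 33.0 in CT, without overlap, and none was at 0 throughout. Of the general T-cell, B-cell, dendritic and red pulp macrophage lists (8, 6, 7 and 7 genes), limma called 0 in OS against saline. At an unadjusted p under 0.05 stood 0, 0, 2 and 0, and voom called 0. Over all genes, 1.98% were called higher, 1.01% lower and 16.3% had an unadjusted p under 0.05. The part of T cells in the Prdm1 and Irf4 values was not tested.

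**Figure D5:**
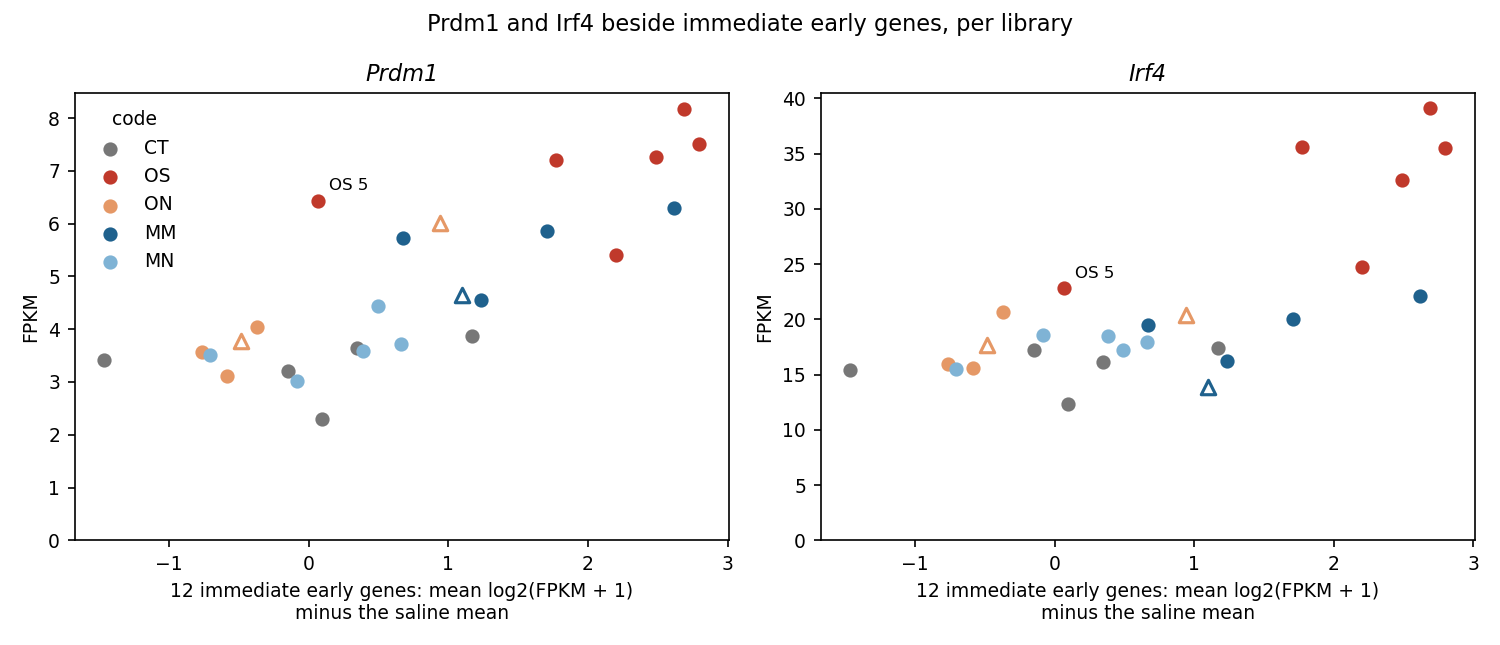
FPKM of Prdm1 and Irf4 (y axes, linear from 0) against the mean log2(FPKM + 1) of 12 immediate early genes less the saline mean (x axes), 1 point per library coloured by code, with open triangles for libraries with pancreas reads. OS 5 sits at 0.07 on the x axis with 6.43 FPKM of Prdm1 and 22.8 of Irf4, above all saline libraries and for Irf4 the lowest in OS, while the other 5 OS libraries lie at 1.77 to 2.80.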

How the data were processed

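RNA was sequenced from poly(A)-selected libraries of mouse spleen. The authors deposited FPKM values for 26 libraries in 1 table, and every column was used. Tools listed in the submitters' processing notes, with no role given, are featureCounts 1.5.0-p3, HISAT2 2.0.5, edgeR 3.24.3, CASAVA, DESeq2 1.20.0 and StringTie 1.3.3b. The build of the genome was not given in the sources used here, and the deposited positions of 0 of 10 members overlap those of RefSeq on GRCm38.p6, so the promoter windows were matched by symbol alone. FPKM times gene length gave whole reads for 100% of values (tolerance 0.05 reads). No molecular identifiers are named, so reads are not separate molecules.

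A gene was kept if 5 or more libraries had an FPKM of 1 or more. Values were taken as log2(FPKM + 1) and fitted with limma 3.58.1 in R 4.3.3, fitting the 26 libraries together with a mean per code (5 codes) and a variance trend. OVA was the average of the OS and ON means, and the mimic treatment was the average of the MM and MN means. P-values were adjusted by the Benjamini-Hochberg method over all genes within each comparison, and a gene was called at an adjusted p under 0.05. voom on the recovered reads, an alternative, called 287 genes for OVA against saline where the main test called 340. The fit was tested on simulated data with known changes. Other alternatives changed the pseudocount, filter, scaling, codes fitted and libraries used.

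All 10 members are named. From each of 20 lists (181 of 181 symbols matched), up to 3 passing genes with the smallest p and up to 2 not passing with the highest FPKM could be named per comparison, and for each member the 3 most alike by Pearson r over 23 libraries. The members and lists were chosen with earlier results of these data known.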

Additional observations from a re-analysis of the deposited data

Results flagged for a closer look

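In 50 groups of libraries (10 members in 5 codes), 4 held a library far from the rest of its code, where chance flags about 1 in 20 groups. These were Xbp1 in OS 5 at 52.5 FPKM, Derl3 in CT 4 at 2.17, Fkbp11 in ON 2 at 26.5 and Fkbp11 in MM 2 at 9.57. ON 2 and MM 2 hold 28.0% and 14.0% of reads on pancreas genes, and 6.62% of the reads of CT 4 were mitochondrial. The part of either in these values was not tested.

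OS and ON, both given OVA and set against the same saline libraries, differed for Prdm1 and Irf4. The test did not call Xbp1, the third factor (-0.22, adjusted p = 0.639, limma). Tested directly with limma, OS was higher by 0.67 for Prdm1 (adjusted p = 0.0303) and by 0.76 for Irf4 (adjusted p = 0.0202) on the log2(FPKM + 1) scale. These calls ended in 10 of 18 alternative fits for Prdm1 and in 8 of 18 for Irf4. What OS and ON stand for is not defined in the labels.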

How the results depend on the processing

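Over 130 pairs of member and comparison, 2500 alternative values were computed. None reversed a called direction, 2453 kept their side of the threshold, 36 lost the call and 11 gained it, and the cause was not tested. Most pairs were not called in the main fit, and only called pairs could lose a call. For Mzb1 in MN against OS the call ended in 14 of 18 alternatives. In OS against ON it ended in 10 of 18 for Prdm1 and 8 of 18 for Irf4. In OVA against saline it ended in 1 of 24 for Prdm1 and 3 of 24 for Irf4. Both held in all 18 for OS against saline and MN against OS. The number of called members changed as follows. With only the compared codes fitted it was 1 for OVA against saline (in place of 2), 0 for OS against ON (2), 1 for MM against MN (0) and 1 for MN against ON (0), the last 2 being Mzb1. With 1 mean per treatment it was 0 for OVA against saline. Without the filter on low values it was 1 for OS against ON. For MM against saline it was 1 (in place of 0), Prdm1, under median-of-ratios scaling, under voom and without the libraries with pancreas reads. Leaving out 1 library at a time gave 1 (CT 1) to 3 (CT 4) for OVA against saline, 0 to 2 for OS against ON, 2 to 3 (CT 4) for OS against saline, 2 to 3 for MN against OS, 0 to 1 (CT 5 or MM 3) for MM against saline and 0 to 1 (OS 5 or OS 6) for MM against OS. Over all genes, the 340 calls of OVA against saline went to 87 with 1 mean per treatment, 117 with only the compared codes, 108 without the libraries with pancreas reads, 150 without the filter and 184 with the block. The 469 of OS against saline went to 88 with only the compared codes, 283 without the filter and 306 with the block. The 29 of OS against ON went to 17 with a pseudocount of 0.1, 6 without the filter, 0 with only the compared codes and 123 without the libraries with pancreas reads.

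With the replicate number as a block, 0 members were called for OS against ON, and 3 genes in all. Same-numbered libraries did not deviate together: over 50 such pairs the correlation of deviations ran from -0.394 to 0.356 with a median of -0.0437, and 1 of 26 libraries correlated best with its own number. No pairing by number was therefore seen. A pairing hidden by larger differences between libraries would not show in these correlations. Depth limits Tnfrsf17 most, at 18 to 62 reads per library.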

Other observations

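Of 5 genes of natural killer cells, limma called 2 lower (1.38% of all genes) and 0 higher in OVA than in saline, the granule protease Gzma by -0.64 ± 0.12 (adjusted p = 0.00494) and the activating receptor Ncr1 by -0.80 ± 0.20 (adjusted p = 0.036). The other 3 did not pass, the median of the 5 was -0.13, beside 0.00799 over all genes tested, and without the libraries with pancreas reads 1 of 5 was called lower. In OS against saline Gzma and Ncr1 were called lower (1.01% of all genes) by -0.69 ± 0.13 and -0.84 ± 0.22 (adjusted p = 0.00471 and 0.04, limma).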
